A study of Mus musculus with 6 samples.

Results

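The genes described here build the route by which proteins enter mitochondria and the chaperones and proteases that receive them. They were read in primary acinar cells of the mouse pancreas, which make the digestive enzymes, with 3 libraries labelled as a conditional knock-out (cKO) for the nuclear receptor ERRγ and 3 labelled as control. Members are all symbols of the count tables that begin with Tomm or Timm followed by a digit, 25 in all, and 16 further genes listed by symbol (Hspd1, Hspe1, Hspa9, Grpel1, Grpel2, Trap1, Lonp1, Clpp, Clpx, Pmpca, Pmpcb, Phb, Phb2, Dnaja3, Pam16 and Dnajc19). This gives 41 members among 23282 rows, of which 39 had enough counts to be tested.

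Both groups were of strain C57BL/6J. The cKO libraries carry the genotype ERRgamma -/- and the control libraries are given as wild type. All 6 shared the same culture in Waymouth's medium with serum, trypsin inhibitor, antibiotics and EGF. The labels name no Cre driver, deleted exon, culture time, cell purity, sex or age. They also do not tie libraries to animals, so the p-values rest on a spread that may be purely technical. Each library started from 500 ng of RNA and the QuantSeq kit, in which each read comes from the 3' end of a transcript.

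Most mitochondrial proteins are made in the cytosol as precursors. Receptors of the outer membrane (Tomm20, Tomm22, Tomm70a) pass them to a pore, Tomm40, that small subunits (Tomm5, Tomm6, Tomm7) hold together. In the intermembrane space the small TIM proteins escort hydrophobic precursors to the carrier translocase around Timm22. Precursors with a presequence cross the inner membrane through Timm23 and Timm17 and are pulled in by a motor around the Hsp70 protein of the matrix, encoded by Hspa9. The processing peptidase then removes the presequence, the Hspd1 and Hspe1 chaperonin folds the product, and Lonp1 and ClpXP degrade what fails to fold. Acinar cells depend on mitochondrial ATP for enzyme synthesis and secretion, and ERR receptors are known as activators of mitochondrial genes.

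Directions below hinge on how libraries are scaled. Digestive enzymes filled much of the control libraries: the 12 acinar markers listed took 8.33%, 27.9% and 13.1% of all counts in cKO libraries 1, 2 and 3, against 43.4%, 43.3% and 41.3% in the control libraries. Libraries held 15170173 to 16963782 counts in cKO and 23009041 to 25183465 in control. TMM scaling multiplied these totals by factors of 1.96 to 3.92 in cKO and 0.308 to 0.342 in control to give effective sizes. Levels are CPM computed on this effective size, and a library's CPM therefore need not reach the same sum as another's. All rows together summed to 255325 to 511253 CPM in cKO and 2920580 to 3246430 CPM in control. The 12 acinar markers held 1206410 to 1410040 CPM of the control sums. Other genes held the rest, which was not broken down by gene. The limit set by a count of 0 (3 counts, counting error only) was 0.04999 to 0.0904 CPM in cKO and 0.353 to 0.399 CPM in control. On the effective scale the median tested gene had a log2 fold change of 0.10, and on library totals of 3.36. Below, "fell" and "rose" describe a gene against most other genes on the effective scale. As a share of all counts, each of the 39 tested members was higher in all cKO libraries than in all control libraries, as were 96.9% of all tested genes. Esrrg, which encodes ERRγ, had 0, 9 and 1 counts in cKO libraries 1, 2 and 3 and 0 in each control library, so its tags were absent from the libraries labelled wild type and do not bear out the labels. The labels do not place the deletion, and every direction below rests on the labels.

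On the effective scale, 20 of the 39 tested members fell in cKO and 0 rose (edgeR adjusted p under 0.05). At an unadjusted p under 0.05, 2 members, Hspa9 and Lonp1, were higher in cKO, and the DESeq2 test likewise gave 20 lower and 0 higher. Among all 13132 tested genes 20.7% fell and 24% rose. The median log2 fold change of the tested members was -0.53, which lies 0.63 below the median of all tested genes, and 36 of the 39 lay below that median. In cKO libraries 1, 2 and 3 the summed level of all members was 483, 647 and 547 CPM, against 882, 798 and 816 CPM in control libraries 1, 2 and 3. No cKO library reached the lowest control library. For 21 members all cKO libraries lay below all control libraries, and for 2, Hspa9 and Lonp1, all lay above. The first pattern was seen in 25.4% of all tested genes, and the second in 4038 of the 13132.

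**Figure D1:**
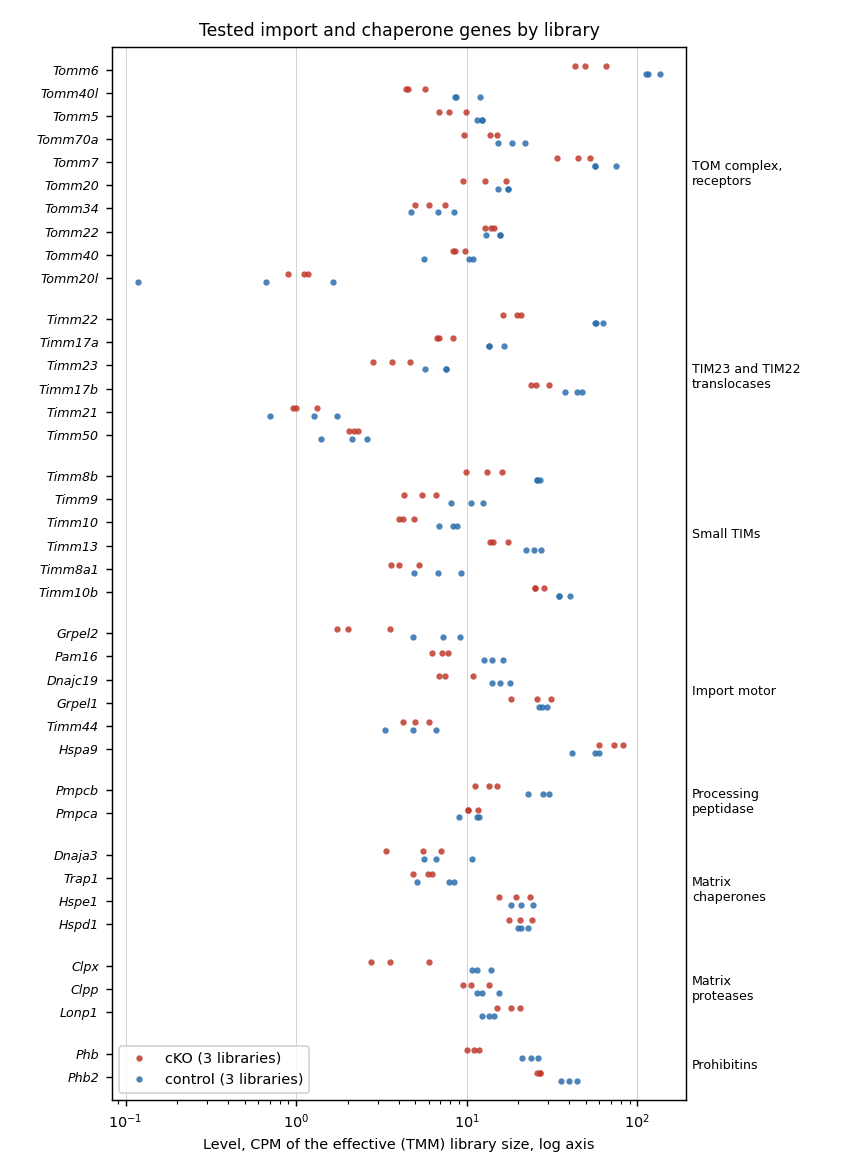
Level of each of the 39 tested members in the 3 cKO and 3 control libraries, in CPM of the effective library size on a log axis, grouped by role. The Timm22 points of cKO (16.4 to 20.9 CPM) lie far left of those of control (56.5 to 62.6 CPM), while those of Hspd1 (17.7 to 24.0 and 20.01 to 22.8 CPM) overlap; as shares of all counts all members were higher in cKO.

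By role, among the outer membrane genes 4 of 10 fell, among the inner membrane translocases 4 of 6, and among the small TIM genes 5 of 6. In the import motor 3 of 6 fell, in the processing peptidase 1 of 2, in the matrix proteases 1 of 3 and in the prohibitins 2 of 2, whereas 0 of 4 matrix folding chaperones passed the test. Among all tested genes 20.7% fell. These groups of members are small, and differences between them, or from that share, were not tested.

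Fewer acinar cells and less RNA per acinar cell cannot be told apart in bulk libraries, and other cell types moved with the groups. The marker counts below stand against 20.7% of all tested genes that fell and 24% that rose. All 12 acinar markers fell (median log2 fold change -3.95), with a summed level of 21259 to 142652 CPM in cKO and 1206410 to 1410040 CPM in control. Of 10 fibroblast and stellate cell markers 9 rose, and their sum was 3831 to 5585 CPM in cKO and 807 to 886 CPM in control. Of the 9 tested macrophage and leukocyte markers 8 rose, with sums of 214 to 443 CPM in cKO and 70.8 to 90.3 CPM in control. None of the listed fibroblast or leukocyte markers was at 0 in all libraries. Of the 6 tested duct markers 3 fell and 2 rose (104 to 118 CPM in cKO, 198 to 238 CPM in control). Of 6 endothelial markers 1 fell and 2 rose (14.1 to 21.4 CPM in cKO, 25.5 to 29.9 CPM in control), and of 7 islet markers 1 fell (409 to 843 CPM in cKO, 589 to 947 CPM in control); as mean shares of all counts 5 of the 6 duct, 6 of the 6 endothelial and 7 of the 7 islet markers were higher in cKO. The cKO library with the highest acinar sum, replicate 2, also had the highest summed member level. The median member stood 0.79, 0.36 and 0.53 log2 units below its control mean in cKO libraries 1, 2 and 3. The part of these cells in the results was not tested.

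**Figure D2:**
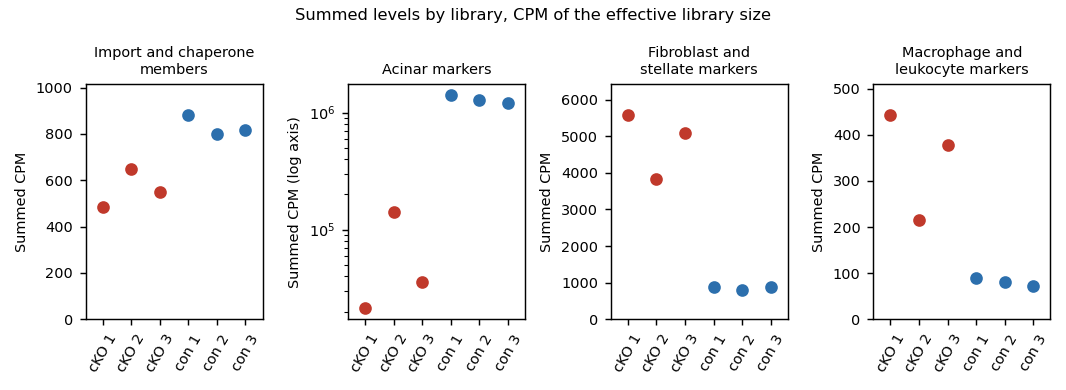
Summed level per library, in CPM of the effective library size, of the import and chaperone members and of 3 marker lists; acinar markers are on a log axis. Members and acinar markers are lowest in cKO replicate 1, and the fibroblast and leukocyte sums are highest there.

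Start-site sequences are shown for members whose window holds AAGGTCA, the half-site to which ERR receptors and related nuclear receptors bind. RefSeq windows of GRCm38.p6, from 250 bases before to 50 after an annotated start, were at hand for 36 of the 41 members. The full ERR element TCAAGGTCA stood in 1 of these, Timm8b, which is 2.78% of members, against 0.466% of 27025 genes with a window. Its shorter form AAGGTCA, which every full element contains, stood in 6 members (16.7%) against 5.38% of genes. Searches covered both strands. In the lines below, capitals mark every match to 6 searched motifs: these 2, the ETS core CCGGAAG, the ATF4 and CHOP composite TGATGCAAT, and the NRF1 motif and the heat shock element, which are given by name.
Timm8b (chr9:50603651-50603950, plus strand): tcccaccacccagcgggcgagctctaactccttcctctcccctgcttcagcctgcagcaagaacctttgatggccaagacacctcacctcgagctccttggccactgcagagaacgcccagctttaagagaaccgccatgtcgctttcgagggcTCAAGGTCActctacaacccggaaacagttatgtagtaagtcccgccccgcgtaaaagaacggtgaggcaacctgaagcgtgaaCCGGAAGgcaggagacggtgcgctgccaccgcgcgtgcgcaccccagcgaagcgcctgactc
Timm23 (chr14:32201842-32202141, minus strand): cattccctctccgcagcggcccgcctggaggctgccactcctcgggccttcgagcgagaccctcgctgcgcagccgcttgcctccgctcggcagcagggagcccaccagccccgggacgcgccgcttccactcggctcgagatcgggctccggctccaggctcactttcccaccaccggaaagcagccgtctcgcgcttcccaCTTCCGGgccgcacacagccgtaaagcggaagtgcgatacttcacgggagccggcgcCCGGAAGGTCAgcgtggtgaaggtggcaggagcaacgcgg
Hspe1 (chr1:55087898-55088197, plus strand): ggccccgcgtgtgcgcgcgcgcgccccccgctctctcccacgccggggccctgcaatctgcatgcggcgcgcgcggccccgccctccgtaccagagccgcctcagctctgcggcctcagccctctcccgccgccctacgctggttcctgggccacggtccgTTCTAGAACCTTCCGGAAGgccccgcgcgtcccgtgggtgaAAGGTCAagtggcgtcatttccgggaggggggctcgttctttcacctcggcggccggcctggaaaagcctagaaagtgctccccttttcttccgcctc
Timm44 (chr8:4275856-4276155, minus strand): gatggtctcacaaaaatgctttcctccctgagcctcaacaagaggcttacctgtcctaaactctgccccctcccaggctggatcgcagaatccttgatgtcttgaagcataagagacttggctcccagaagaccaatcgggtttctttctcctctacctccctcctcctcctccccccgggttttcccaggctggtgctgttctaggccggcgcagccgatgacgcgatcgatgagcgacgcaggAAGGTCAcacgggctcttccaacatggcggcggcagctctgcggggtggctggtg
Trap1 (chr16:4077761-4078060, minus strand): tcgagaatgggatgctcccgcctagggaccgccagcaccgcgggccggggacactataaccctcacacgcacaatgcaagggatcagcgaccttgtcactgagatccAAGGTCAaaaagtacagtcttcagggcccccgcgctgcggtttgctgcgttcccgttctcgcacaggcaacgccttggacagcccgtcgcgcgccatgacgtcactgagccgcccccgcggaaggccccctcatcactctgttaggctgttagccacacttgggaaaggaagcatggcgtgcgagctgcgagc
In the Timm8b window the full element begins 96 bases before the start, and an ETS core begins 12 bases before it. The Timm23 window holds the half-site 15 bases into the transcript, where it overlaps an ETS core. Hspe1 and Hspd1 lie head to head, and the window of 1 of the 2 Hspd1 starts shares 285 bases with the Hspe1 window, so the matches printed for Hspe1 count for both genes. There, 2 overlapping heat shock elements, 89 and 84 bases before the Hspe1 start, also overlap ETS cores.

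Members with and without these letters fell. Of the 6 members with the half-site, Timm8b and Timm23 fell, and Hspd1, Hspe1, Timm44 and Trap1 did not pass. Of the 28 tested members with a window but no half-site, 15 fell. The ETS core, which GABP factors bind, stood in 16 of 36 members (44.4%) and in 9.93% of genes with a window. Of the 15 tested members with it 6 fell, and of the 19 without it 11 fell. Heat shock elements stood in 3 members, Hspd1, Hspe1 and Timm9 (8.33%, against 0.662% of genes). NRF1 and composite letters were in 0 member windows and in 1.07% and 0.222% of genes. The gene shares cover all genes with a window, whether tested here or not, and shares among tested genes were not computed. A match is a description of the sequence, not a binding site.

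At the outer membrane Tomm6, Tomm40l, Tomm5 and Tomm7 fell, and the other 6 genes, the pore gene Tomm40 among them, did not pass. Tomm6, a small subunit that steadies the TOM complex (chromosome 17, 47686646 to 47688386, minus strand, GRCm38), had 43.2, 65.8 and 49.4 CPM in the cKO libraries, against 136, 116 and 112 CPM in the control libraries. The groups did not overlap, and the log2 fold change was -1.20 ± 0.18 (SE; adjusted p = 7.72e-05). Tomm40l, a paralog of the pore protein (chromosome 1, 171216011 to 171222514), had 4.54, 5.73 and 4.40 CPM in cKO and 8.50, 8.59 and 11.9 CPM in control. It fell by 0.99 ± 0.24 on the log2 scale (SE; adjusted p = 0.00350). Tomm40 itself (chromosome 7, 19701313 to 19715438) had 8.33, 9.76 and 8.52 CPM in cKO and 10.9, 5.65 and 10.3 CPM in control. Its groups overlapped, with a log2 fold change of -0.01 ± 0.25 (SE; adjusted p = 0.982).

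The other small subunits Tomm5 (log2 fold change -0.55) and Tomm7 (-0.52) fell with little margin. Tomm5 lost its call without any 1 library but cKO replicate 2 (adjusted p = 0.0683 to 0.151), and Tomm7 did so without the same 5 libraries (0.0584 to 0.192). The receptor genes Tomm70a (-0.53), Tomm20 (-0.36) and Tomm22 (-0.11) did not pass. For Tomm70a the groups did not overlap (9.68, 15.04 and 13.7 CPM in cKO, 15.1, 18.4 and 22.0 CPM in control; adjusted p = 0.0512), and it passed without control replicate 1 (0.0469) and without cKO replicate 2 (0.0141). Tomm20 also passed without cKO replicate 2 (-0.57; adjusted p = 0.0251). Tomm34, a largely cytosolic partner of chaperones, had a value of -0.12, and Tomm20l, a relative of Tomm20, of 0.39 ± 0.68 (SE). Tomm20l rested on 53, 37 and 70 counts in cKO and 5, 1 and 13 in control, and gave -0.13 without control replicate 2 and 1.47 without control replicate 3.

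Timm22, the core of the translocase that inserts metabolite carriers into the inner membrane, fell with the smallest p of all members (chromosome 11, 76406952 to 76416292, plus strand). It was counted 1169, 693 and 983 times in cKO libraries 1, 2 and 3, and 425, 484 and 493 times in the control libraries. On the effective scale these counts are 19.7, 20.9 and 16.4 CPM in cKO and 56.5, 57.0 and 62.6 CPM in control, a log2 fold change of -1.63 ± 0.16 (SE; adjusted p = 2.01e-06). The level in cKO was thus 3.09-fold lower, with narrow groups far apart. Leaving out any 1 library gave -1.69 to -1.53.

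Channel genes of the presequence translocase also fell. Timm17a (chromosome 1, 135295213 to 135313778) had 6.87, 8.26 and 6.72 CPM in cKO, against 13.5, 13.5 and 16.6 CPM in control (-1.003 ± 0.20, SE; adjusted p = 7.84e-04). Its paralog Timm17b, on chromosome X, fell by 0.70 ± 0.16 on the log2 scale, and the channel gene Timm23 by 0.91 ± 0.28 (SE). Timm23 lost its call without cKO replicate 1 or 3 or control replicate 1 or 2 (adjusted p = 0.0559 to 0.0662). The presequence receptor gene Timm50 had 2.04, 2.17 and 2.30 CPM in cKO and 2.13, 2.59 and 1.40 CPM in control, overlapping groups with a log2 fold change of 0.09 ± 0.39 (SE; adjusted p = 0.875). Timm21, which links the TOM and TIM23 complexes, had -0.16 ± 0.54 on 6 to 80 counts per library.

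Most small TIM genes fell. Timm8b, a partner of Timm13 in the escort of precursors such as Timm23 (chromosome 9, 50603910 to 50605320), had 9.93, 16.1 and 13.1 CPM in cKO and 25.6, 25.8 and 27.0 CPM in control. All cKO libraries stood below the controls (-1.004 ± 0.19, SE; adjusted p = 6.06e-04). Its window with the ERR element is shared with Sdhd, a subunit gene of complex II that starts 98 bases away on the other strand and had -0.49 ± 0.21 (SE; adjusted p = 0.0737). Timm13 (chromosome 10, 80899450 to 80900969) had 14.2, 17.4 and 13.6 CPM in cKO, against 27.1, 22.4 and 24.8 CPM in control (-0.72 ± 0.17, SE; adjusted p = 0.00345). Timm9 (-0.93) and Timm10 (-0.86), which form the main escort of carriers, fell too, as did Timm10b (-0.48), a subunit docked on Timm22. Timm10b lost its call without cKO replicate 1 or 3 or control replicate 1 (adjusted p = 0.0526 to 0.0867).

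Timm8a1, the X-linked partner of Timm13, had 4.01, 5.27 and 3.62 CPM in cKO and 4.91, 6.83 and 9.27 CPM in control. These ranges overlapped, and the log2 fold change was -0.71 ± 0.28 (SE; adjusted p = 0.0539). It passed without cKO replicate 2 (adjusted p = 0.0245) or control replicate 1 (0.0291). Timm8a2 had 2 counts in cKO replicate 1 and 0 in the other 5 libraries, and was not tested. The antisense RNA gene Tomm6os also matched the symbol rule, with 3, 4 and 7 counts in cKO and 12, 3 and 0 in control, too few to be tested.

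Within the import motor Pam16, Dnajc19 and Grpel2 fell, and Grpel1, Timm44 and Hspa9 did not pass. Pam16, which restrains the motor (chromosome 16, 4616464 to 4624988), had 6.24, 7.20 and 7.72 CPM in cKO and 16.2, 14.1 and 12.6 CPM in control (-1.02 ± 0.20, SE; adjusted p = 7.42e-04). Dnajc19, a J protein that stimulates it, fell by 0.93 ± 0.22 on the log2 scale. Grpel2, one of a pair of nucleotide exchange factors for mitochondrial Hsp70 (chromosome 18, 61712424 to 61726325), had 1.73, 3.53 and 1.9998 CPM in cKO, against 9.17, 4.82 and 7.24 CPM in control. Its fold change was -1.56 ± 0.34 (SE; adjusted p = 0.00180), the lowest control library standing above the highest cKO library. Grpel1, the other exchange factor, did not pass (-0.16 ± 0.19, SE).

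Hspa9 had 60.0016, 82.8 and 72.7 CPM in cKO and 56.3, 41.5 and 59.7 CPM in control, so all cKO libraries stood above all controls by a small gap. Its log2 fold change of 0.45 ± 0.18 (SE) narrowly missed the threshold (adjusted p = 0.0516). It passed with upper-quartile factors (0.0498), with no filter (0.0233), with a stricter filter (0.0188) and without cKO replicate 1 (0.0169). Timm44, which anchors Hsp70 at the channel, had 4.98, 6.03 and 4.23 CPM in cKO and 6.64, 4.82 and 3.30 CPM in control, with overlapping groups (0.04 ± 0.30, SE; adjusted p = 0.917).

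Both subunits of the processing peptidase are needed to clip presequences; Pmpcb fell and Pmpca did not pass. Pmpcb, the catalytic subunit (chromosome 5, 21737141 to 21757152), had 11.1, 14.9 and 13.4 CPM in cKO, against 30.4, 27.9 and 22.8 CPM in control (-1.04 ± 0.18, SE; adjusted p = 2.92e-04). The substrate-binding subunit Pmpca (chromosome 2, 26389339 to 26397122) had 11.6, 10.2 and 10.1 CPM in cKO and 11.8, 11.4 and 9.01 CPM in control. Its groups overlapped, with a log2 fold change of -0.02 ± 0.20 (SE; adjusted p = 0.959).

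No matrix folding chaperone passed the test. Hspd1, the Hsp60 chaperonin (chromosome 1, 55077835 to 55088243, minus strand), had 17.7, 24.0 and 20.4 CPM in cKO and 20.7, 20.01 and 22.8 CPM in control, overlapping groups with a log2 fold change of -0.03 ± 0.17 (SE; adjusted p = 0.887). Its lid, Hspe1, had -0.12 ± 0.19 (SE). Trap1, the Hsp90 protein of mitochondria, had 5.94, 6.24 and 4.83 CPM in cKO and 8.37, 7.88 and 5.08 CPM in control (-0.33 ± 0.26, SE; adjusted p = 0.319). Dnaja3, a J protein of the matrix, had 3.37, 7.08 and 5.52 CPM in cKO, against 10.8, 6.59 and 5.58 CPM in control (-0.53 ± 0.32, SE; adjusted p = 0.191). It passed without cKO replicate 2 (-0.77; adjusted p = 0.0474).

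Of the matrix protease genes only Clpx passed. Clpx, the unfoldase that feeds the protease Clpp (chromosome 9, 65294260 to 65330658), had 2.74, 5.97 and 3.55 CPM in cKO and 11.6, 13.9 and 10.8 CPM in control, without overlap. The log2 fold change was -1.58 ± 0.28 (SE; adjusted p = 3.46e-04), and -1.93 without cKO replicate 2. Clpp (chromosome 17, 56990305 to 56996188) had 9.54, 13.4 and 10.5 CPM in cKO, against 12.4, 15.5 and 11.4 CPM in control, and did not pass (-0.23 ± 0.21, SE; adjusted p = 0.381). Lonp1, the Lon protease (chromosome 17, 56614297 to 56626887), had 15.1, 20.4 and 18.1 CPM in cKO and 14.5, 12.4 and 13.5 CPM in control. Its cKO libraries all stood above the controls, yet 0.41 ± 0.18 (SE) missed the threshold (adjusted p = 0.0828). It passed under a stricter filter (0.0238) and without cKO replicate 1 (0.0482).

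The prohibitins, whose ring-shaped assemblies hold inner membrane proteins and proteases in place, both fell. Phb (chromosome 11, 95666957 to 95680773) had 9.997, 11.8 and 11.1 CPM in cKO, against 26.0, 23.8 and 21.1 CPM in control (-1.11 ± 0.17, SE; adjusted p = 1.15e-04). Phb2 (chromosome 6, 124712336 to 124716950) had 25.8, 27.0 and 26.8 CPM in cKO and 35.6, 39.5 and 44.0 CPM in control (-0.58 ± 0.15, SE; adjusted p = 0.00591). Neither pair of groups overlapped.

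**Figure D3:**
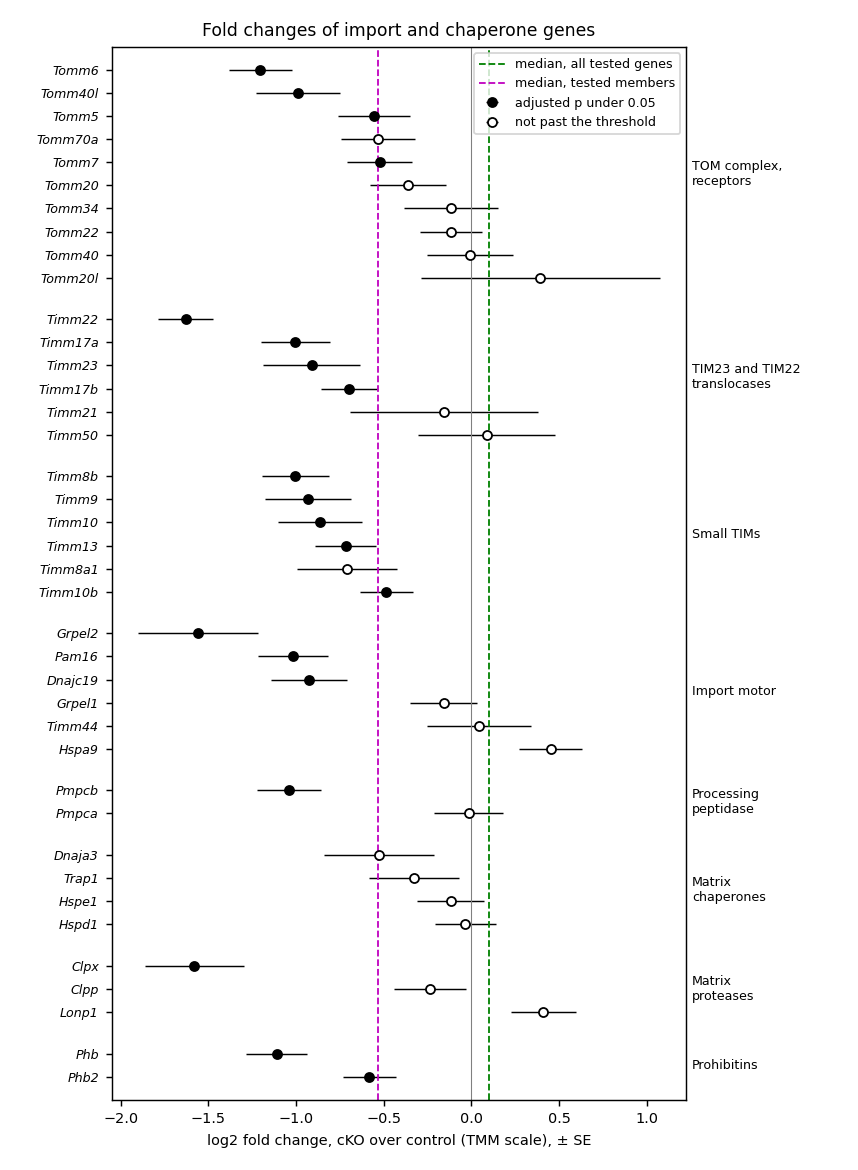
Log2 fold change, cKO over control, of the 39 tested members on the effective scale with its SE, grouped by role; filled points passed adjusted p 0.05. The 20 filled points lie between -1.63 and -0.48, the dashed lines are the medians of tested members (-0.53) and of all tested genes (0.10), and on library totals all 39 values are above 0.

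Ratios of members within a library do not depend on the scale, and 8 pairs of paralogs or partners were compared in this way. Shares are of the counts of the pair, and intervals are exact 95% Clopper-Pearson intervals that cover counting error only. For 6 of the 8 pairs the groups did not overlap. How often other gene pairs separate in this way was not computed. Of 13132 single tested genes, 3336 had all cKO libraries below all controls on the effective scale, and 4038 had all above. Each of the 6 pairs had an exact 2-sided permutation p of 0.1 (0.133 adjusted over the 8 pairs). That is the smallest p that 3 against 3 libraries allow, so no pair can pass 0.05 in this design. The p-values of the other pairs were 0.9 for Hspd1 with Hspe1 and 0.4 for Timm8a1 with Timm8b.

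The widest shift was that of the ClpXP protease. Clpp made up 77.7% (74.5 to 80.6), 69.3% (65.5 to 72.8) and 74.8% (71.7 to 77.7) of Clpp and Clpx counts in cKO libraries 1, 2 and 3. In control libraries 1, 2 and 3 its share was 51.7% (44.1 to 59.2), 52.8% (46.4 to 59.1) and 51.4% (43.8 to 59.0). The difference of the means was 21.9 percentage points, and no interval of cKO touched one of control. Tomm40 averaged 64.6% ± 1.46 of Tomm40 and Tomm40l counts in cKO and 47.4% ± 8.30 in control (SD, n = 3 each). Pmpca averaged 44.8% ± 5.42 of the processing peptidase counts in cKO and 28.4% ± 0.543 in control (SD, n = 3 each). Grpel1 took 91.3% ± 1.48 of the exchange factor counts in cKO and 80.1% ± 4.17 in control (SD, n = 3 each). In each of these 3 pairs the cKO share was the higher one in every library.

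In 2 pairs the share of the first gene was lower in cKO. Phb averaged 29.2% ± 1.21 of prohibitin counts in cKO and 37.4% ± 4.94 in control, and Timm17a 21.6% ± 0.346 of Timm17 counts in cKO and 25.4% ± 2.74 in control (SD, n = 3 each). The Timm17a interval of control replicate 1 (18.5 to 26.4) covers all cKO values. The Phb interval of control replicate 3 (28.3 to 36.6) covers cKO replicates 2 and 3 (30.4% and 29.2%). For Tomm40, the interval of control replicate 1 (47.7 to 64.4) meets those of cKO replicates 1, 2 and 3 (from 61.2, 58.7 and 62.5). For Grpel1, that of control replicate 2 (79.6 to 88.7) meets that of cKO replicate 2 (87.9 to 91.5). Hspd1 averaged 51.7% ± 1.43 of chaperonin counts in cKO and 50.3% ± 4.53 in control (SD, n = 3 each), with overlapping groups. Timm8a1 averaged 25.0% ± 3.59 of Timm8a1 and Timm8b counts in cKO and 20.9% ± 4.72 in control, overlapping as well.

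**Figure D4:**
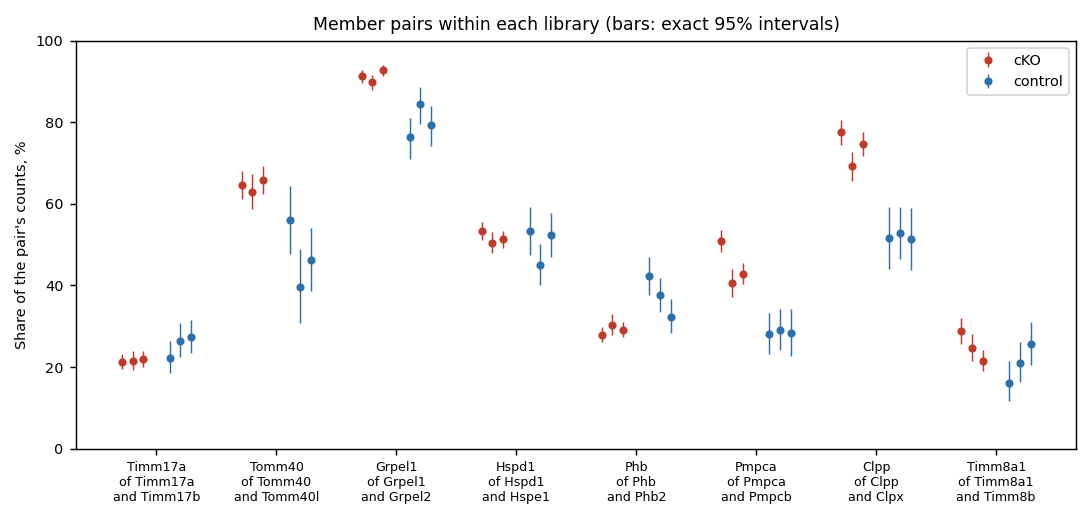
Share of the first gene in the counts of 8 member pairs, in percent, per library, with exact 95% intervals. Clpp, Pmpca, Grpel1 and Tomm40 hold larger shares in all cKO libraries than in all control libraries, and Hspd1 stays near 50.3% to 51.7% on average in both groups.

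The members that fell tended to have short coding sequences, a property the choice of members did not use. Lengths are those of the longest coding sequence per gene in GENCODE M21. Of 25 tested members of up to 900 coding bases 17 fell (68.0%; median log2 fold change -0.71), and of 14 longer ones 3 did, Clpx, Pmpcb and Tomm40l (21.4%; median -0.08). Among all tested genes with a length, 29.0% of 3268 genes of up to 900 bases fell and 17.9% of 8769 longer genes. Across the 39 members, Spearman's rho of log2 fold change with coding length was 0.35, against 0.11 across 12037 tested genes. With transcript length it was 0.04 and 0.08, and with GC content 0.16 and 0.00. These are descriptions across genes that share the same 6 libraries, and the limit of 900 bases was set after the values were seen.

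**Figure D5:**
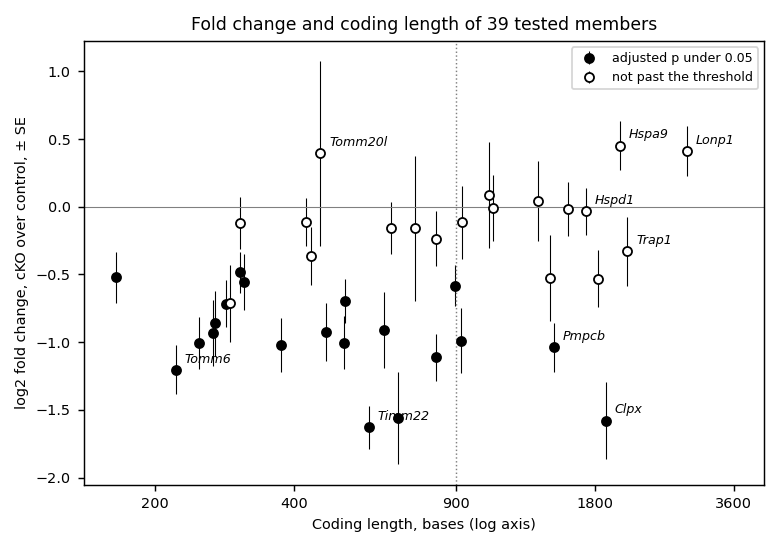
Log2 fold change, cKO over control (effective scale, ± SE), against coding length in bases on a log axis for the 39 tested members; filled points passed adjusted p 0.05 and the dotted line marks 900 bases. Left of it 17 of 25 members fell and right of it 3 of 14; on library totals all 39 values are above 0.

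Several members are neighbours or overlap in the genome. Timm9 and Tomm20l meet tail to tail on chromosome 12, where their annotated genes overlap by 49 bases at the 3' ends that the tags read. Hspd1 and Hspe1 overlap by 112 bases at their starts. Trap1, Pam16 and Dnaja3 lie within 0.668 megabases of chromosome 16, and Lonp1 and Clpp within 0.382 megabases of chromosome 17. For 15 of the 41 members a gene of the other strand covers the annotated 3' end, among them Tomm6 (Usp49), Timm13 (Tmprss9), Pam16 (Glis2) and Pmpca (Inpp5e). This overlap is of whole gene spans, and exons were not compared. Whether the counting used strand is not given, so reads of such pairs may be mixed. Named pseudogenes exist for 4 members, 6 for Hspe1, 5 for Hspd1 and 1 each for Hspa9 and Dnajc19, which makes their levels uncertain.

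Genes that work beside the members were read from lists, whose counts stand against 20.7% of all tested genes that fell and 24% that rose; no list was tested against other genes. The relay that oxidises small TIM proteins fell in 3 of 3 genes: Gfer, its sulfhydryl oxidase (-1.17 ± 0.20, SE), Chchd4, the import receptor it renews (-0.95 ± 0.24), and Aifm1, which anchors Chchd4 (-0.94 ± 0.25). Outer membrane sorting and assembly fell in 3 of 6, led by the metaxin gene Mtx2 (-1.38 ± 0.28) and Mtch2, an insertase (-0.68 ± 0.16). Among insertion and cristae-organising MICOS genes 3 of 9 fell and 1 rose. The MICOS genes Chchd3 (-1.35 ± 0.18) and Apoo (-2.19 ± 0.31) had the smallest p-values there, and Chchd6, which rose, had 0.82 ± 0.31. Of 5 other presequence peptidases 2 fell, both inner membrane peptidase genes, Immp1l (-1.22 ± 0.26) and Immp2l (-1.69 ± 0.52).

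Proteases of the inner membrane and intermembrane space fell in 3 of 8 cases and rose in 1. The m-AAA protease genes Afg3l1 (-1.20 ± 0.18) and Afg3l2 (-0.92 ± 0.26) led these. Spg7, also an m-AAA subunit gene, did not pass (0.25 ± 0.21). Iron-sulfur and TIM partner genes fell in 4 of 8 cases, led by Romo1 (-1.82 ± 0.18) and Nfs1, the cysteine desulfurase (-1.95 ± 0.34). Of 15 cytosolic chaperones that keep precursors unfolded, 4 rose (26.7%, near the 24% of all tested genes) and 1 fell, with a median of 0.33. Dnajb1, a heat-inducible J protein, rose by 1.38 ± 0.22, and the chaperone partner Ubqln1 fell by 0.92 ± 0.15 on the log2 scale. As mean shares of all counts, all 67 tested genes of these lists and of the stress response list that follows were higher in cKO.

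A stress response list joined regulators and targets of the mitochondrial stress response with the cytosolic heat shock genes Hspb1, Hspa1a and Hspa1b. Of its 13 tested genes 6 rose (46.2%, against 24% of all tested genes), these heat shock genes among them. Of the 13, 4 fell (30.8%, against 20.7%). The stress hormone gene Gdf15 had 1830, 702 and 1729 counts in cKO and 29, 42 and 25 in control, or 26.9 ± 5.09 CPM in cKO and 3.99 ± 0.893 CPM in control (SD, n = 3 each; log2 fold change 2.75 ± 0.23, SE; adjusted p = 7.91e-07). Ddit3, which encodes the stress factor CHOP, rose by 2.08 ± 0.21, and Trib3 by 3.06 ± 0.36. The transcription factor genes Atf4 (-0.56 ± 0.18) and Atf5 (-0.73 ± 0.17) fell, as did Asns (-2.66 ± 0.31) and Chac1 (-1.48 ± 0.28). Hsf1 (-0.63 ± 0.33), Eif2ak1 (-0.36 ± 0.21) and Fgf21 (-0.12 ± 0.43) did not pass. Heat shock genes Hspb1 (1.24 ± 0.18), Hspa1a (1.41 ± 0.27) and Hspa1b (0.82 ± 0.27) rose, while the chaperonin genes Hspd1 and Hspe1, whose windows hold heat shock elements, did not pass.

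Other mitochondrial groups were read in the same fit. Complex I genes were taken as symbols beginning Nduf and a, b, c, s or v, a pattern that also admits Ndufaf assembly factors. Of 77 mitochondrial ribosome genes (symbols beginning Mrpl or Mrps and a digit) 37 fell and 0 rose, with a median of -0.56. Of the 45 complex I genes 40 fell and 0 rose, with a median of -1.05. These compare with 20 of 39 members and a median of -0.53, and as shares of all counts all 77 and all 45 were higher in cKO. Among all tested genes 20.7% fell and 24% rose, and the differences between groups were not tested. The 5 genes outside the list whose log2 CPM followed the mean of the tested members most closely over the 6 libraries, among 4333 with a mean log2 CPM of at least 3, were Txn2, Cox16, Sdf2l1, Npdc1 and Mcee (Pearson's r from 0.996 to 0.999, a description over 6 libraries in 2 groups).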

How the data were processed

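Each library has its own table, in which the authors deposited unnormalized whole-number counts by gene symbol. Per the submitters' processing notes the tools include Bowtie2 and edgeR and the build is mm10 or GRCm38. The counter, the annotation and the strand setting were not stated. Counts may include PCR copies, since the labels mention no molecular identifiers.

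Totals were 15170173 to 25183465 counts, and the counting floor stated above follows from the effective sizes. Each table held 23282 rows with 23237 symbols, and 36 symbols on more than 1 row were kept as separate rows. Rows were kept by filterByExpr (minimum count 10, minimum total 15), scaled with TMM and fitted in edgeR 4.0.16 (R 4.3.3) by robust quasi-likelihood, with Benjamini-Hochberg adjustment over all 13132 tested rows and a threshold of 0.05. The SE is the fold change divided by the square root of F. A prior count of 2 went into log2 CPM. DESeq2 1.42.0, upper-quartile factors, library totals, no filter, a filter of 5 CPM in 3 libraries, the replicate number as a block and fits without each library were alternatives. The members and lists were chosen with earlier results of these data known. Named in full are, per role, the 2 members with the smallest p and the 1 with the largest. Of each neighbouring list the 2 with the smallest p are named. Further list genes (Aifm1, Chchd6, Spg7, the stress list genes after Gdf15 and Ddit3) were chosen after their values were seen. So were Sdhd and further members with library values. Promoter windows are RefSeq's (GRCm38.p6), and coordinates and lengths are from GENCODE M21, also GRCm38.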

Additional observations from a re-analysis of the deposited data

How the results depend on the processing

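The direction of the members depends on the scale. On library totals 0 members were called lower and 39 higher, their median was 2.68, and of all genes 12706 were called, 53 lower and 12653 higher. The 34 members below 0 on the effective scale then had log2 fold changes of Hspd1 3.19, Hspe1 3.09, Timm17a 2.23, Tomm40l 2.23, Timm13 2.52, Timm22 1.62, Phb 2.14, Timm9 2.29, Timm23 2.29, Tomm22 3.14, Trap1 2.93, Pam16 2.25, Dnaja3 2.66, Tomm70a 2.68, Tomm6 2.002, Clpp 2.98, Grpel2 1.60, Timm21 3.12, Pmpca 3.27, Timm10 2.43, Tomm34 3.21, Dnajc19 2.27, Tomm5 2.66, Pmpcb 2.20, Tomm7 2.70, Grpel1 3.04, Phb2 2.68, Tomm40 3.24, Timm10b 2.77, Tomm20 2.83, Timm8b 2.20, Clpx 1.57, Timm17b 2.54 and Timm8a1 2.49. The members' median still lay 0.68 below that of all tested genes, a comparison added after the data were seen.

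With upper-quartile factors 1 member was called higher, without a filter 1, with the stricter filter 2, and without 1 library 0 to 2 (Hspa9, Lonp1); under the stricter filter 2046 genes were called higher. Members called lower were 20 of 39 tested by DESeq2, 20 of 39 with upper-quartile factors, 19 of 41 without a filter and 17 of 34 with the stricter filter. Without 1 library they were 16 to 24 of 39, and 16 of the 20 kept the call without each library in turn. Values near 0 changed sign: without a filter Hspd1 0.0067, Pmpca 0.026 and Tomm40 0.033, with the stricter filter Hspd1 0.072, Pmpca 0.093 and Tomm40 0.10, and with upper-quartile factors Pmpca 0.0041 and Tomm40 0.010. Without 1 library, ranges that crossed 0 were Hspd1 -0.14 to 0.072, Hspe1 -0.26 to 0.028, Tomm20l -0.13 to 1.47, Timm21 -0.44 to 0.16, Pmpca -0.12 to 0.059, Tomm34 -0.31 to 0.11, Grpel1 -0.33 to 0.029, Tomm40 -0.25 to 0.16, Timm50 -0.12 to 0.31 and Timm44 -0.17 to 0.32. The cause was not tested.

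Same-numbered libraries did not deviate together (correlations 0.01, -0.03 and -0.01), and the labels do not say whether a number marks a shared animal or day. With the replicate block 20 members were called lower and 0 higher, and 5389 genes were called in all; Tomm5 lost its call (adjusted p = 0.0542 in edgeR), Tomm70a gained one (0.0369), and Tomm40 had 0.022. Of the 8 pairs, 6 or 7 did not overlap without 1 library. Control libraries had as few as 1 count for Tomm20l and 6 for Timm21, so those values rest on few counts.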
